A study of Mus musculus with 31 samples.

Results

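The keratin-associated protein family was followed in AA skin of C3H/HeJ mice, an inbred strain used as a model of alopecia areata (the reading taken here for AA), through topical treatment with PBS or with 1 of 2 JAK inhibitors known by the codes jak1i and jak3i. The members were all genes whose only symbol in the probe table begins with Krtap, each measured by its probe set of highest mean over the 31 arrays, which gave 38 of 18193 genes. Total RNA of whole skin was hybridised to Affymetrix 3' expression arrays. All 11 groups came from the same strain and tissue: PBS, jak1i and jak3i at 0, 6 and 12 weeks with 3 arrays each, and jak1i and jak3i at 24 weeks with 2 arrays each. The 31 arrays hold no PBS group at 24 weeks, and the time unit was read from the sample titles. The dose, the age of the mice and whether mice were sampled repeatedly are not given in the sources used here. The replicates are called biological by the submitters, so the p-values measure the spread between these samples.

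Keratin-associated proteins form the matrix in which the hair keratin filaments of the hair shaft are embedded and cross-linked, in large part through disulfide bonds between cysteines. They are made in the differentiating cortex and cuticle cells of growing follicles, after the hair keratins have begun to accumulate, and not in resting follicles. By symbol number, 10 members belong to the high-sulfur class, 13 to the ultrahigh-sulfur class and 14 to the glycine-tyrosine class, whose proteins are poor in cysteine and rich in the residues that name them. Krtap31-1, the only other member, was left unclassed. The classes rest on the symbol number alone and are least certain for Krtap16-3 and Krtap28-13, which are counted in the class medians below. In mouse build GRCm38.p6 the genes lie in clusters, with 20 on chromosome 16 (all 14 glycine-tyrosine and 6 high-sulfur genes), 10 on chromosome 11, 5 on chromosome 7 (all Krtap5), 2 on chromosome 10 and 1 on chromosome 1.

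The members have near-identical paralogs and moved together, so their promoters are shown first. RefSeq promoter windows, from 250 bases before to 50 after the start site, matched 36 of the 38 members, and Krtap7-1 and Krtap12-1 had none. The letters TATAAA, on either strand, stood in 29 of these 36 windows (80.6%) and in 13.62% of 32851 windows of all genes. On the gene's own strand with the first base between positions −40 and −20 they stood in 21 (58.3%), against 1.99% of all windows. A second form, TATATAAG, was added after the windows had been seen and was in 6 members (16.7%), against 1.01%. One form or the other was in 35 members (97.2%), Krtap5-3 being the exception, against 14.43%. The members are paralogs and therefore not independent of each other, and a match is a description of letters, not a measured binding site.

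Krtap14 and Krtap15 are neighbours on chromosome 16 that are read away from each other, Krtap14 (88825291 to 88826145) on the minus strand and Krtap15 (88829009 to 88829844) on the plus strand. Their windows before the start site, chr16:88826146-88826395 (minus) and chr16:88828759-88829008 (plus), are shown whole because both hold the TATATAAG form, at positions −30 and −46, and CTTTGAA, the core of LEF1/TCF sites, at −207 in Krtap14 and at −189 and −136 in Krtap15. Capitals mark these letters.
Krtap14: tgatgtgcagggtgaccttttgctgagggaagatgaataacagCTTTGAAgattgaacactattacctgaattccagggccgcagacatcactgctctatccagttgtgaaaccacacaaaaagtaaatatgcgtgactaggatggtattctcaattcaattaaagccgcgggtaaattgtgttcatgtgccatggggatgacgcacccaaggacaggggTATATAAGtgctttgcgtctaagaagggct
Krtap15: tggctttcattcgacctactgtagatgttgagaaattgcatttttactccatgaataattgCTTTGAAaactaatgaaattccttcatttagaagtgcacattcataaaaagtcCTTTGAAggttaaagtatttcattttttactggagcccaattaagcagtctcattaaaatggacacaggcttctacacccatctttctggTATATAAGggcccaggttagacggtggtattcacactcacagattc
CTTTGAA was found on either strand in 6 members (16.7%: Krtap1-5, Krtap11-1, Krtap14, Krtap15, Krtap16-3 and Krtap19-3), against 5.14% of all windows. TTTATNAG, a homeobox-like motif that shares bases with the reverse of TATAAA, was in 3 members (8.3%), against 3.68%.

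The last 80 bases before the start site of 6 further members, each described below, show how the TATA letters sit in the other classes: Krtap16-3 (chr16:88962874-88962953, minus), Krtap19-2 (chr16:88874270-88874349, minus) and Krtap8-1 (chr16:89487953-89488032, minus) of the glycine-tyrosine class, Krtap4-16 (chr11:99851606-99851685, minus) and Krtap5-2 (chr7:142176006-142176085, minus) of the ultrahigh-sulfur class, and the unclassed Krtap31-1 (chr11:99907840-99907919, plus). Capitals mark TATAAA or TATATAAG.
Krtap16-3: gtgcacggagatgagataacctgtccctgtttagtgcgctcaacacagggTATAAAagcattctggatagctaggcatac
Krtap19-2: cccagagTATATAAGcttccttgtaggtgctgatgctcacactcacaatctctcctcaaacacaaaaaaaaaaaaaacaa
Krtap8-1: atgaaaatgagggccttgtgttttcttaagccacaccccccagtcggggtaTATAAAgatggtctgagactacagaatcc
Krtap4-16: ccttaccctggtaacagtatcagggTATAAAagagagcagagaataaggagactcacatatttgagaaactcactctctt
Krtap5-2: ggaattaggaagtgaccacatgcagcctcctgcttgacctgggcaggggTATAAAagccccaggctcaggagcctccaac
Krtap31-1: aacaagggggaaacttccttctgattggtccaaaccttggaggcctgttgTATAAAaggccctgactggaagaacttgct
The first capital lies at position −30 in Krtap16-3 and Krtap31-1, at −29 in Krtap8-1, at −31 in Krtap5-2, at −55 in Krtap4-16 and at −73 in Krtap19-2.

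Krtap genes were among the most variable on the array. The deposited values are log2 values from RMA, a method that corrects background, equalises the arrays and summarises the probes of a set, and across the 31 arrays the median of an array lay between 6.05 and 6.24. The difference between a member's highest and lowest array had a median of 8.59 log2 units, from 2.14 (Krtap13) to 10.14 (Krtap19-2), and the median over all genes was 0.85. A range of at least 4 was reached by 37 of 38 members (97.4%), against 2.56% of all genes. They were 9 of the 10 genes with the largest range and 31 of the first 100. The median range was 9.52 in the glycine-tyrosine, 7.97 in the ultrahigh-sulfur and 7.52 in the high-sulfur class. The spread within groups was as uncommon: the residual SD of the 11-group model had a median of 2.27 over the members and 0.18 over all genes, and this spread is what the tests below work against. In whole skin, fewer cells of a type and less RNA per cell cannot be told apart.

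Most members had their extremes in the same few arrays. The highest value of 32 members was in the same array, jak3i at 6 weeks replicate 1, and the lowest value of 22 members was in jak3i at 12 weeks replicate 2. The family mean, taken over the members after subtracting each gene's mean over the 31 arrays, was 3.74 in the first array and −4.15 in the second. In PBS it was 1.12, 1.28 and 0.75 at 0 weeks, 0.41, 0.91 and 2.31 at 6 weeks, and 0.98, 0.72 and 2.70 at 12 weeks. All 9 PBS arrays were above 0.

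**Figure D1:**
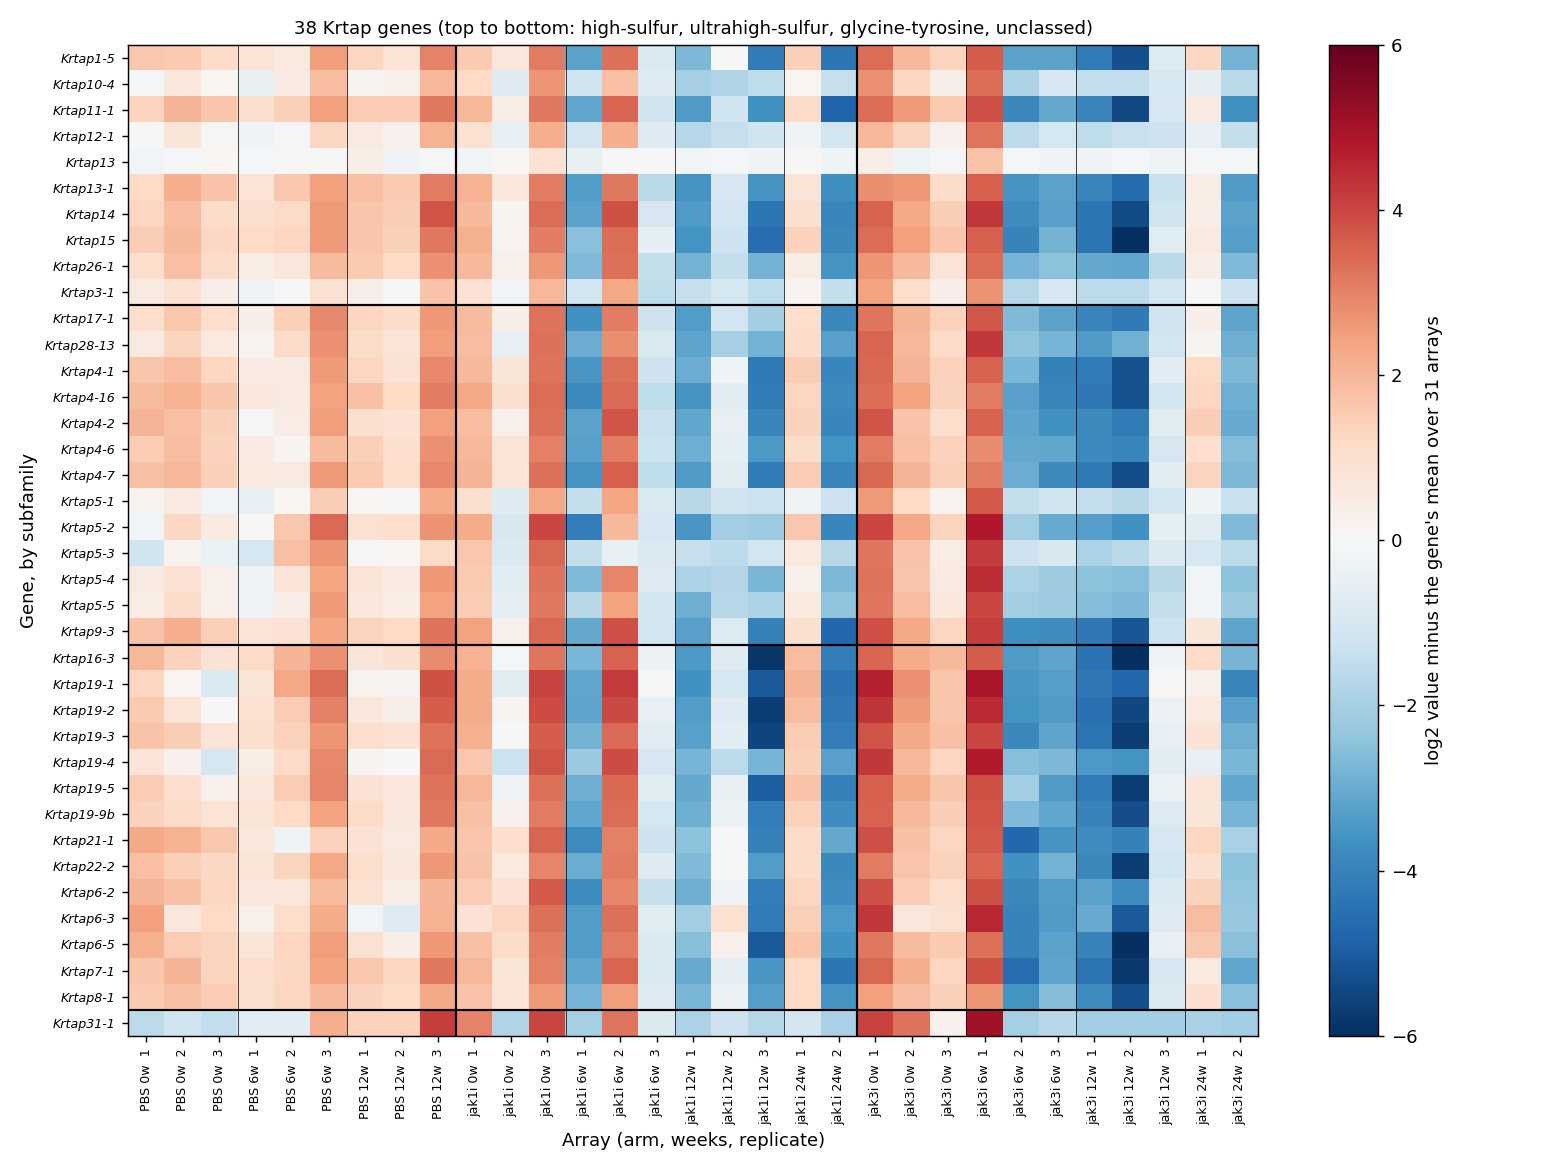
Log2 value of each of the 38 Krtap genes minus its own mean over the 31 arrays (colour, from −6 to 6), with genes in rows by subfamily and arrays in columns by arm, week and replicate; horizontal lines part the subfamilies. The 9 PBS arrays and the 6 inhibitor arrays at 0 weeks are mostly red, the 6 inhibitor arrays at 12 weeks are blue, and the inhibitor arrays at 6 and 24 weeks hold both colours.

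In the inhibitor arms the family mean was high at 0 weeks and low at 12 weeks, and replicates of 1 group were on opposite sides in between. In jak1i it was 1.76, 0.10 and 3.15 at 0 weeks, −2.78, 2.98 and −0.97 at 6 weeks, −2.76, −0.85 and −3.39 at 12 weeks, and 1.01 and −3.33 at 24 weeks. In jak3i it was 3.32, 1.93 and 1.14 at 0 weeks, 3.74, −2.92 and −2.77 at 6 weeks, −3.41, −4.15 and −0.92 at 12 weeks, and 0.48 and −2.57 at 24 weeks. The 6 inhibitor arrays at 12 weeks did not overlap the 9 PBS arrays or the 6 inhibitor arrays at 0 weeks. The SD of the family mean was 2.95 (n = 3) in jak1i and 3.80 (n = 3) in jak3i at 6 weeks, against 0.27 to 1.69 in the groups at 0 and 12 weeks and 0.98 (n = 3) in PBS at 6 weeks.

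Krtap15, a high-sulfur member, is 1 of 4 hair shaft markers used here and shows the course of most members. Its log2 values in PBS were 11.69, 12.18 and 11.49 at 0 weeks, 11.42, 11.53 and 12.77 at 6 weeks, and 11.89, 11.66 and 13.41 at 12 weeks. In jak1i they were 12.38, 10.45 and 13.28 at 0 weeks, 7.73, 13.57 and 9.66 at 6 weeks, 6.64, 8.97 and 5.68 at 12 weeks, and 11.59 and 6.36 at 24 weeks. In jak3i they were 13.60, 12.70 and 11.88 at 0 weeks, 13.80, 6.24 and 7.42 at 6 weeks, 5.89, 4.11 and 9.49 at 12 weeks, and 10.75 and 6.91 at 24 weeks. At 12 weeks every PBS array was above every inhibitor array, whereas at 6 weeks 1 array of each inhibitor was above all 3 PBS arrays.

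Krtap14, the neighbour of Krtap15 and also high-sulfur, had log2 values of 10.52, 11.08 and 10.34 in PBS at 0 weeks and of 10.89, 10.74 and 13.04 at 12 weeks. At 6 weeks it was at 10.23, 10.39 and 11.78 in PBS, at 6.05, 13.05 and 8.25 in jak1i and at 13.46, 5.52 and 6.0 in jak3i. In jak1i it went from 11.20, 9.41 and 12.61 at 0 weeks to 5.83, 8.10 and 4.92 at 12 weeks. In jak3i it went from 12.78, 11.58 and 10.71 to 4.91, 3.89 and 8.04. Replicate 2 of jak1i and replicate 3 of jak3i were the highest of their groups at 12 weeks for this gene, as they were for Krtap15.

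Krtap16-3, put in the glycine-tyrosine class by its number, reached some of the lowest values. They were 11.99, 11.40 and 10.87 in PBS at 0 weeks and 10.73, 10.98 and 12.86 at 12 weeks. In jak1i they were 12.07, 9.87 and 13.21 at 0 weeks and 6.53, 9.24 and 4.18 at 12 weeks. In jak3i they were 13.47, 12.21 and 11.93 at 0 weeks and 5.58, 3.59 and 9.76 at 12 weeks. The groups at 12 weeks did not overlap those at 0 weeks in either arm; replicate 2 was the lowest jak1i array at 0 weeks and the highest at 12 weeks.

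Krtap4-16, an ultrahigh-sulfur gene of the chromosome 11 cluster, was at 11.27, 11.47 and 11.07 in PBS at 0 weeks and at 11.18, 10.58 and 12.47 at 12 weeks. In jak1i it was at 11.73, 10.34 and 12.73 at 0 weeks and at 5.84, 8.75 and 5.22 at 12 weeks. In jak3i it was at 12.75, 11.83 and 10.78 at 0 weeks and at 5.09, 4.19 and 8.28 at 12 weeks. In all 4 markers, from 3 classes and 2 chromosomes, the 6 inhibitor arrays at 12 weeks stood in the same order within each arm.

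**Figure D2:**
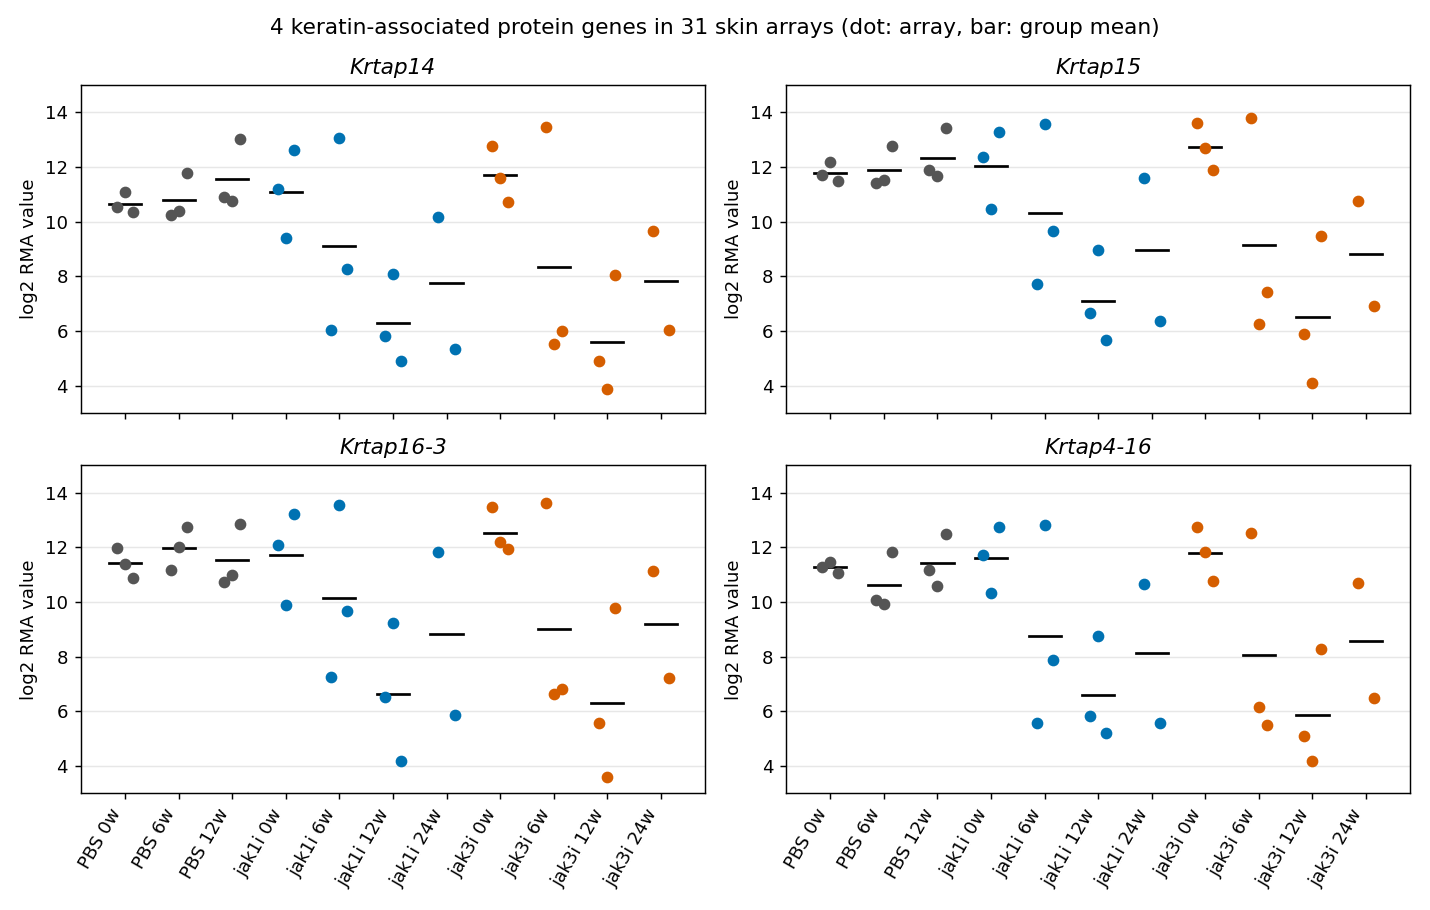
Log2 RMA value of Krtap14, Krtap15, Krtap16-3 and Krtap4-16 in each of the 31 arrays, by arm and week; each dot is 1 array and each bar a group mean. PBS stays high through 12 weeks, both inhibitor arms are low in all arrays at 12 weeks, and at 6 and 24 weeks each inhibitor arm has arrays near PBS and arrays far below it.

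At 12 weeks jak3i skin was far below PBS skin for nearly the whole family. In the limma fit over all 31 arrays, with a call at a Benjamini-Hochberg adjusted p under 0.05 over all genes, 14 of 38 members fell (5 high-sulfur, 5 ultrahigh-sulfur and 4 glycine-tyrosine), beside 7.28% of all genes. All 38 differences were negative with a median of −4.73, the median over all genes being −0.03, and in 37 members the groups did not overlap, beside 19.7% of all genes. Krtap15 fell by 5.82 on the log2 scale (SE 1.73, adjusted p = 0.0264, n = 3 and 3), which is 56.6-fold, and Krtap14 by 5.95 (SE 1.81, adjusted p = 0.0291). Krtap7-1 (−5.76) and Krtap19-9b (−5.02) led the glycine-tyrosine members called, and Krtap4-16 (−5.56) and Krtap9-3 (−5.49) the ultrahigh-sulfur ones. Krtap16-3 did not pass at −5.21 (SE 1.90, adjusted p = 0.0595).

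This count changed when 1 array was left out, and each such fit also has a smaller group. No member was called without PBS replicate 1 or 3 or without jak3i replicate 1 or 2, 9 were called without PBS replicate 2 (8.62% of all genes called lower) and 20 without jak3i replicate 3 (5.94%), while the median difference stayed between −5.84 and −3.91. With the spread estimated from the compared arrays alone 28 members were called, beside 5.36% of all genes called lower, and against PBS at 6 weeks none was (median −4.59, smallest adjusted p = 0.0690). Centring each array on its median shifted all differences by −0.14, and then 21 members and 16.6% of all genes were called lower; the split of all called genes went from 1823 higher and 1325 lower to 1252 and 3016.

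For jak1i at 12 weeks the members lay nearly as far below PBS, but fewer passed. Only Krtap15 (−5.23, SE 1.73, adjusted p = 0.0484) and Krtap26-1, a high-sulfur gene of chromosome 16 (−4.21, SE 1.40, adjusted p = 0.0490), fell, 2 of 38 beside 6.51% of all genes. The share called was below that of all genes although all 38 differences were negative, with a median of −4.03 and with no overlap between the groups in 36 members (18.9% of all genes). An unadjusted p under 0.05 was reached by 30 members, a count given without the share of all genes at that level. Both calls were lost when any 1 of the 6 arrays was left out (median −4.81 to −3.41), under the trended and robust variance, and against PBS at 6 weeks, and 22 members were called with the spread of the compared arrays alone, beside 5.75% of all genes called lower.

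Skeletal muscle genes moved with the comparisons against PBS at 12 weeks. All 12 muscle markers were higher in each inhibitor than in PBS at 12 weeks (median 4.90 for jak3i and 5.40 for jak1i), because their list mean was −6.01, −2.68 and −4.27 in the 3 PBS arrays at 12 weeks and between −0.61 and 1.58 in the other 28. Its part in the result was not tested. The comparisons with 0 weeks of the same arm do not use those arrays: there the median of the muscle markers was 0.68 in jak3i and 1.01 in jak1i.

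Within the jak3i arm the fall from 0 to 12 weeks was the widest called change of the family. Of 38 members 21 fell (6 high-sulfur, 7 ultrahigh-sulfur and 8 glycine-tyrosine), beside 2.85% of all genes, and the median over all 38 was −5.30. The groups did not overlap in 37 members, beside 17.4% of all genes. Krtap15 fell by 6.23 (SE 1.73, adjusted p = 0.0339), Krtap16-3 by 6.22 (SE 1.90, adjusted p = 0.0422) and Krtap4-16 by 5.93 (SE 1.76, adjusted p = 0.0395), 74.8-, 74.7- and 61.0-fold. Krtap19-2 had the largest difference, −6.28, and did not pass (SE 2.05, adjusted p = 0.0520).

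Here too the count changed when 1 array was left out, and each such fit also has a smaller group. It was 0 without jak3i at 0 weeks replicate 1 or 2 or at 12 weeks replicate 1 or 2, 12 without replicate 3 at 0 weeks (2.73% of all genes called lower) and 22 without replicate 3 at 12 weeks (2.52%), with medians of −6.37 to −4.55. It was 33 with the spread of the compared arrays alone (3.12% of all genes called lower) and 32 with each array centred on its median, which shifted all differences by −0.17 and put 12.8% of all genes among the lower calls (1348 higher and 519 lower before centring, 720 and 2320 after).

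In the jak1i arm no member passed from 0 to 12 weeks, beside 16.3% of all genes called in either direction. The median was −4.26, all 38 differences were negative, and in 35 members the groups did not overlap (19.7% of all genes). In the limma test 35 had an unadjusted p under 0.05, a count given without the share of all genes at that level. The smallest adjusted p was 0.0539, for Krtap15 (−4.94, SE 1.73), and Krtap4-16 was at −4.99 (SE 1.76, adjusted p = 0.0550). Without jak1i at 0 weeks replicate 2, the array with the lowest family mean of that group, 5 members were called, beside 4.47% of all genes called lower. Without jak1i at 12 weeks replicate 2, the highest of its group, 1 of 38 was, below the 4.38% of all genes. With the spread of the compared arrays alone 30 were called, beside 6.96% of all genes called lower, and with dim genes left out 5, beside 9.74%.

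PBS skin showed no such course. From 0 to 12 weeks no member was called, beside 2.28% of all genes, and the median was 0.41 with 31 of 38 differences positive (1 unadjusted p under 0.05, Krtap31-1). From 0 to 6 weeks none was called either, beside 0.0055% of all genes, with a median of 0.05 and no unadjusted p under 0.05. The median of the 4 hair shaft markers was 0.34 from 0 to 12 weeks.

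**Figure D3:**
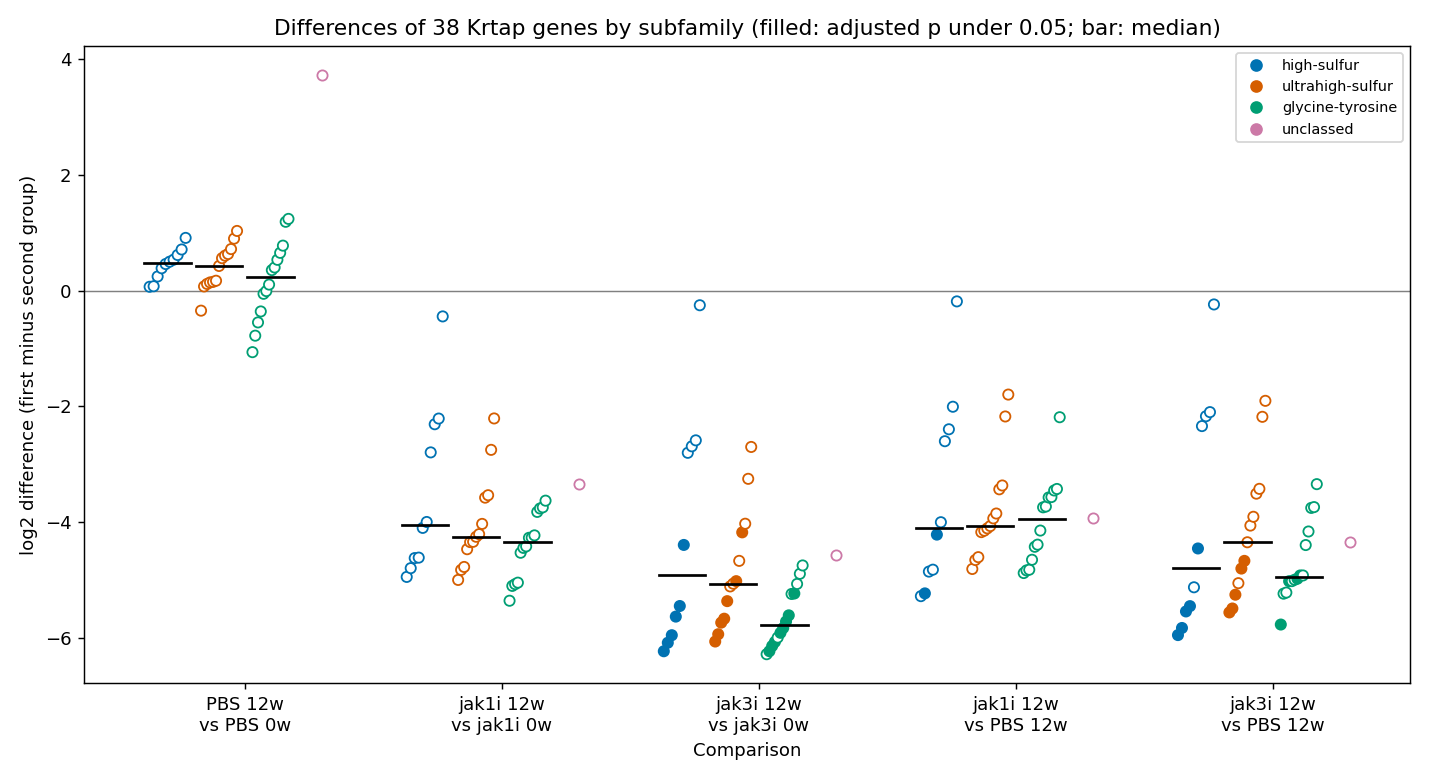
Log2 difference of each of the 38 Krtap genes in 5 comparisons (first minus second group), coloured by subfamily; filled circles have a limma adjusted p under 0.05 and bars are subfamily medians. In PBS from 0 to 12 weeks the points lie around 0 with Krtap31-1 apart at 3.72, and in the other 4 comparisons all but 1 or 2 points lie below −2, with 0, 21, 2 and 14 filled from left to right.

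The test of the difference between the arms' courses from 0 to 12 weeks left 1 call. For jak3i against PBS the median over the members was −5.76 and 33 had an unadjusted p under 0.05, but only Krtap31-1 passed (−8.29, SE 2.24, adjusted p = 0.0424), beside 1.96% of all genes called lower, so the share called in the family was near that of all genes. For jak1i against PBS the median was −4.51, 14 members had an unadjusted p under 0.05 and 0 passed, beside 6.85% of all genes called in either direction. The smallest adjusted p was again that of Krtap31-1 (−7.07, SE 2.24, adjusted p = 0.0576). With the spread of the compared arrays alone 35 members passed for jak3i and 20 for jak1i, beside 5.08% and 6.41% of all genes called lower. The 33 and 14 members with an unadjusted p under 0.05 have no share of all genes at that level beside them. These comparisons share the PBS arrays with each other and with the comparisons at 12 weeks. In both, 11 of 12 muscle markers were higher than in PBS (medians 4.87 for jak3i and 5.22 for jak1i), and their part in the result was not tested.

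Krtap31-1, the unclassed member on chromosome 11, was singled out after its values had been seen, since in PBS it did not follow its family. Its values were 5.42, 5.79 and 5.52 at 0 weeks, 6.37, 6.29 and 9.19 at 6 weeks, and 8.40, 8.37 and 11.14 at 12 weeks, so that the PBS groups at 0 and 12 weeks did not overlap. The difference was 3.72 (SE 1.59, adjusted p = 0.241) and was not called. In jak1i its values were 9.98, 5.19 and 10.98 at 0 weeks, 4.99, 10.18 and 6.13 at 6 weeks, 5.10, 5.75 and 5.27 at 12 weeks, and 5.90 and 5.07 at 24 weeks. In jak3i they were 11.06, 10.27 and 7.24 at 0 weeks, 12.01, 5.0 and 5.33 at 6 weeks, 4.97, 4.93 and 4.96 at 12 weeks, and 5.03 and 4.92 at 24 weeks. At 0 weeks the mean of the gene was 9.52 in jak3i and 8.72 in jak1i, against 5.58 in PBS. These gaps were not called and are part of the differences between the courses. The values in PBS at 0 weeks and in jak3i at 12 weeks lay below the median of every array (6.05 to 6.24), and the lowest value of the gene was 4.92. The call against PBS was lost in 10 of the 12 fits that left out 1 array (differences from −9.43 to −7.37, adjusted p up to 0.120) and kept without jak3i at 0 weeks replicate 3 or PBS at 12 weeks replicate 2.

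**Figure D4:**
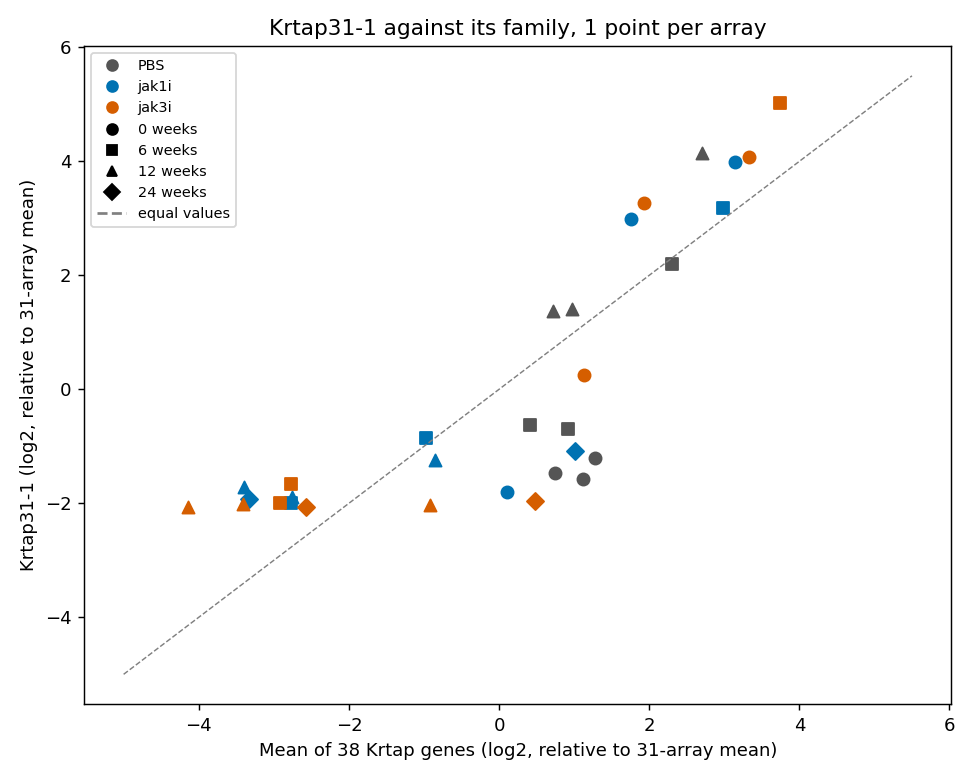
Krtap31-1 against the mean of the 38 Krtap genes, both as log2 values relative to their means over 31 arrays; each point is 1 array, coloured by arm and shaped by week, and the dashed line marks equal values. The 3 PBS arrays at 0 weeks lie below the line near −1.4 although their family means are 0.75 to 1.28, and the 3 PBS arrays at 12 weeks lie above it.

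At 6 weeks no member was called in any comparison. Against PBS the median was −1.69 for jak1i and −2.22 for jak3i, with no unadjusted p under 0.05 in either, beside 1.36% and 1.94% of all genes called. Against 0 weeks of the same arm it was −2.0 for jak1i (12.4% of all genes called; 0 members with an unadjusted p under 0.05) and −3.12 for jak3i (3.15%; 4 members). Leaving out 1 array moved these medians. Against PBS the jak1i median was −3.35 without jak1i replicate 2 and −0.16 without replicate 1, and the jak3i median −4.52 without jak3i replicate 1 and −0.99 without replicate 3. Against 0 weeks the jak1i median was −3.76 without replicate 2 at 6 weeks and −0.62 without replicate 1. A single array decided the jak3i count against 0 weeks: jak3i at 6 weeks replicate 1 held the highest values of 32 members, and without it 33 of 38 members were called lower than at 0 weeks (median −5.36, beside 5.90% of all genes) and 1 lower than PBS (beside 2.35%). Without replicate 2 or 3 the median against 0 weeks was −1.98 or −1.99. In that array the list mean of cytotoxic lymphocyte markers was −1.64, against −1.36 and −1.40 in the other 2 arrays of the group.

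At 24 weeks each inhibitor had 1 array near the level of PBS and 1 far below it. Krtap15 was at 11.59 and 6.36 in jak1i and at 10.75 and 6.91 in jak3i. Against 0 weeks the medians were −3.05 in jak1i and −3.12 in jak3i with 0 members called, beside 1.19% and 0.11% of all genes; for jak3i the groups did not overlap in 32 members, beside 11.8% of all genes called lower by that rule. Against 12 weeks all 38 differences were positive in both arms, with medians of 1.21 and 2.12, and 0 members passed, beside 0 and 0.033% of all genes. Against 12 weeks no member of either arm had an unadjusted p under 0.05, and against 0 weeks 0 had in jak1i and 5 in jak3i. The medians rested on single arrays of the 24-week groups. Against 0 weeks the jak1i median was −5.61 without replicate 1 and −0.68 without replicate 2, and the jak3i median −5.03 and −1.70. Against 12 weeks the jak1i median turned to −1.11 without replicate 1 and was 3.69 without replicate 2, and the jak3i median was 0.21 and 4.0.

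The inhibitors were compared at the same weeks, in 3 comparisons with 0 members called. At 12 weeks jak3i minus jak1i had a median of −0.50, from −1.52 to 0.43, beside 0% of all genes called. For Krtap15 the difference was −0.60, with a 95% interval from −4.19 to 2.99, which spans several log2 units either way. At 24 weeks the median was 0.12 (−2.16 to 2.73 when 1 array was left out), beside 0% of all genes, with an interval from −4.54 to 4.25 for Krtap15. The difference between the courses from 0 to 12 weeks had a median of −0.96, negative in 37 of 38 members, beside 0% of all genes, and no unadjusted p was under 0.05 among the members in any of the 3. These counts and intervals do not show that the inhibitors act alike. At 0 weeks no member was called between either inhibitor arm and PBS, beside 0% of all genes in each, though all 38 differences were positive in both (medians 0.36 for jak1i and 0.86 for jak3i, with an unadjusted p under 0.05 in 0 and 1 member).

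All 3 classes had negative medians in the comparisons of 12 weeks. From 0 to 12 weeks in jak3i the median was −5.77 in the glycine-tyrosine, −5.06 in the ultrahigh-sulfur and −4.92 in the high-sulfur class. At 12 weeks against PBS it was −4.95, −4.34 and −4.79 for jak3i and −3.94, −4.06 and −4.11 for jak1i, so the order of the classes was not the same for both inhibitors. The class medians lay within 1 log2 unit of each other in each comparison, less than the median standard error of a single member (1.75), and the difference between classes was not tested.

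By chromosome the 5 Krtap5 genes of chromosome 7, ultrahigh-sulfur proteins of the hair cuticle, had differences from −5.06 to −2.70 between 0 and 12 weeks in jak3i, and the 5 Krtap4 genes of chromosome 11, a cortex family, from −5.93 to −5.02. These ranges overlap at Krtap5-2 and Krtap4-6, and the difference between the groups of genes was not tested. From 0 to 12 weeks in jak3i the median was −4.02 on chromosome 7, −5.49 for all 10 genes of chromosome 11, −5.77 on chromosome 16 and −2.69 for the 2 genes of chromosome 10. The lowest values of the 2 chromosome 10 probe sets were 6.96 and 7.04, and that of Krtap5-1 was 7.20, all above the median of every array. Whether this limited their differences was not tested. Krtap5-2, the Krtap5 member with the largest range, was at 7.30, 8.69 and 7.98 in PBS at 0 weeks and at 8.38, 8.50 and 10.17 at 12 weeks. In jak3i it went from 11.47, 9.79 and 8.81 at 0 weeks to 4.15, 3.83 and 6.91 at 12 weeks, a difference of −5.06 (SE 1.76, adjusted p = 0.0622). Of this cluster only Krtap5-5, named because it was the single call, fell in that comparison (−4.17, SE 1.34, adjusted p = 0.0493). In PBS at 0 weeks the Krtap5 genes stood at 0.29 ± 0.44 (SD, n = 3) relative to their own 31-array means and the 5 Krtap4 genes at 1.71 ± 0.24, whereas at 12 weeks they stood at 1.05 ± 1.01 and 1.74 ± 0.94.

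Some probe sets with smaller changes had lowest values that stayed high; the members named here and not above were chosen after their values had been seen. Krtap5-1 had log2 values from 7.20 to 12.56, and Krtap12-1 did not go below 7.04 with the probe set used. A second probe set of Krtap12-1 differed by −4.95 from 0 to 12 weeks in jak3i, where the probe set used gave −2.59. In Krtap19-1 and Krtap6-3 it was the unused probe set that moved less, −1.40 against −5.99 and −0.97 against −4.89. In all 5 members with more than 1 probe set the sets had the same sign in the 4 inhibitor comparisons of 12 weeks. Krtap13 had the smallest range of the family: it lay between 3.61 and 5.75, with its highest value in jak3i at 6 weeks replicate 1, was the only member under the filter on dim genes, and differed by −0.24 (SE 0.33) between jak3i and PBS at 12 weeks.

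Krtap8-1, a glycine-tyrosine gene of the cortex, had the smallest range of its class and still moved by several log2 units. It was at 12.99, 13.21 and 12.97 in PBS at 0 weeks and at 12.80, 12.62 and 13.72 at 12 weeks. In jak1i at 12 weeks it was at 8.71, 11.09 and 8.13, and in jak3i at 7.68, 6.15 and 10.57, below all PBS arrays. It fell in jak3i against PBS at 12 weeks by 4.92 (SE 1.47, adjusted p = 0.0267) and from 0 to 12 weeks by 5.23 (SE 1.47, adjusted p = 0.0341). 

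Krtap19-2 and Krtap9-3 had the largest ranges of their classes. Krtap19-2, a glycine-tyrosine gene, was at 11.13, 10.38 and 9.54 in PBS at 0 weeks, 10.49, 11.09 and 12.57 at 6 weeks, and 10.25, 9.91 and 13.22 at 12 weeks. In jak1i it was at 11.78, 9.71 and 13.49 at 0 weeks, 6.38, 13.53 and 9.08 at 6 weeks, 6.20, 8.80 and 3.92 at 12 weeks, and 11.39 and 5.27 at 24 weeks. In jak3i it was at 13.84, 12.14 and 11.24 at 0 weeks, 14.06, 5.97 and 6.17 at 6 weeks, 5.10, 4.08 and 9.22 at 12 weeks, and 10.17 and 6.32 at 24 weeks. No inhibitor array at 12 weeks reached the lowest PBS array. Krtap9-3, an ultrahigh-sulfur gene of chromosome 11, was at 10.24, 10.07 and 12.13 in PBS at 12 weeks, at 5.62, 8.05 and 4.82 in jak1i and at 4.62, 3.77 and 7.60 in jak3i. It fell by 6.06 (SE 1.87, adjusted p = 0.0436) from 0 to 12 weeks in jak3i, where it had been at 12.76, 11.20 and 10.19.

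Other genes of the follicle moved in the same arrays. From 0 to 12 weeks in jak3i 3 of 12 measured hair keratins fell (median −4.15), as did 6 of 11 inner root sheath genes (median −4.62), 1 of 12 hair matrix regulators and partners (median −1.36) and 1 of 9 cell cycle genes (median −1.14), and 0 of 7 epidermal markers was called (median 0.11). In jak1i 0 of 12 hair keratins were called (median −3.56) and 1 of 11 inner root sheath genes rose (list median −3.14). Of the 7 epidermal markers 1 fell in jak1i, Flg, which encodes filaggrin (−1.06, SE 0.33, adjusted p = 0.0342). Of all 18193 genes 519 (2.85%) were called lower in jak3i and 1183 (6.5%) in jak1i, where 1775 were called higher. The hair keratin list mean was between 0.18 and 2.25 in the 9 PBS arrays, and between −3.02 and −0.96 in the 6 inhibitor arrays at 12 weeks, without overlap. These lists were chosen with results of these data known and carry no test of their own.

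Markers of other cells moved as well, and their part in the Krtap differences was not tested. Cytotoxic lymphocyte genes fell in 9 of 10 from 0 to 12 weeks in jak3i (median −1.70) and in 10 of 10 in jak1i (median −2.08). Fat cell genes rose in 0 of 6 in jak3i (median 1.53) and in 5 of 6 in jak1i (median 2.48), and sebaceous gland genes in 1 of 6 (median 1.02) and 4 of 6 (median 1.74). Of all 18193 genes 1348 were called higher and 519 lower in jak3i, and 1775 and 1183 in jak1i. The list means of cytotoxic genes were between 0.27 and 1.74 in the 6 inhibitor arrays at 0 weeks and between −1.85 and −0.56 at 12 weeks. At 6 weeks they were low in all 6 inhibitor arrays, between −1.72 and −1.24, including the 2 arrays in which the Krtap mean was 2.98 and 3.74.

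**Figure D5:**
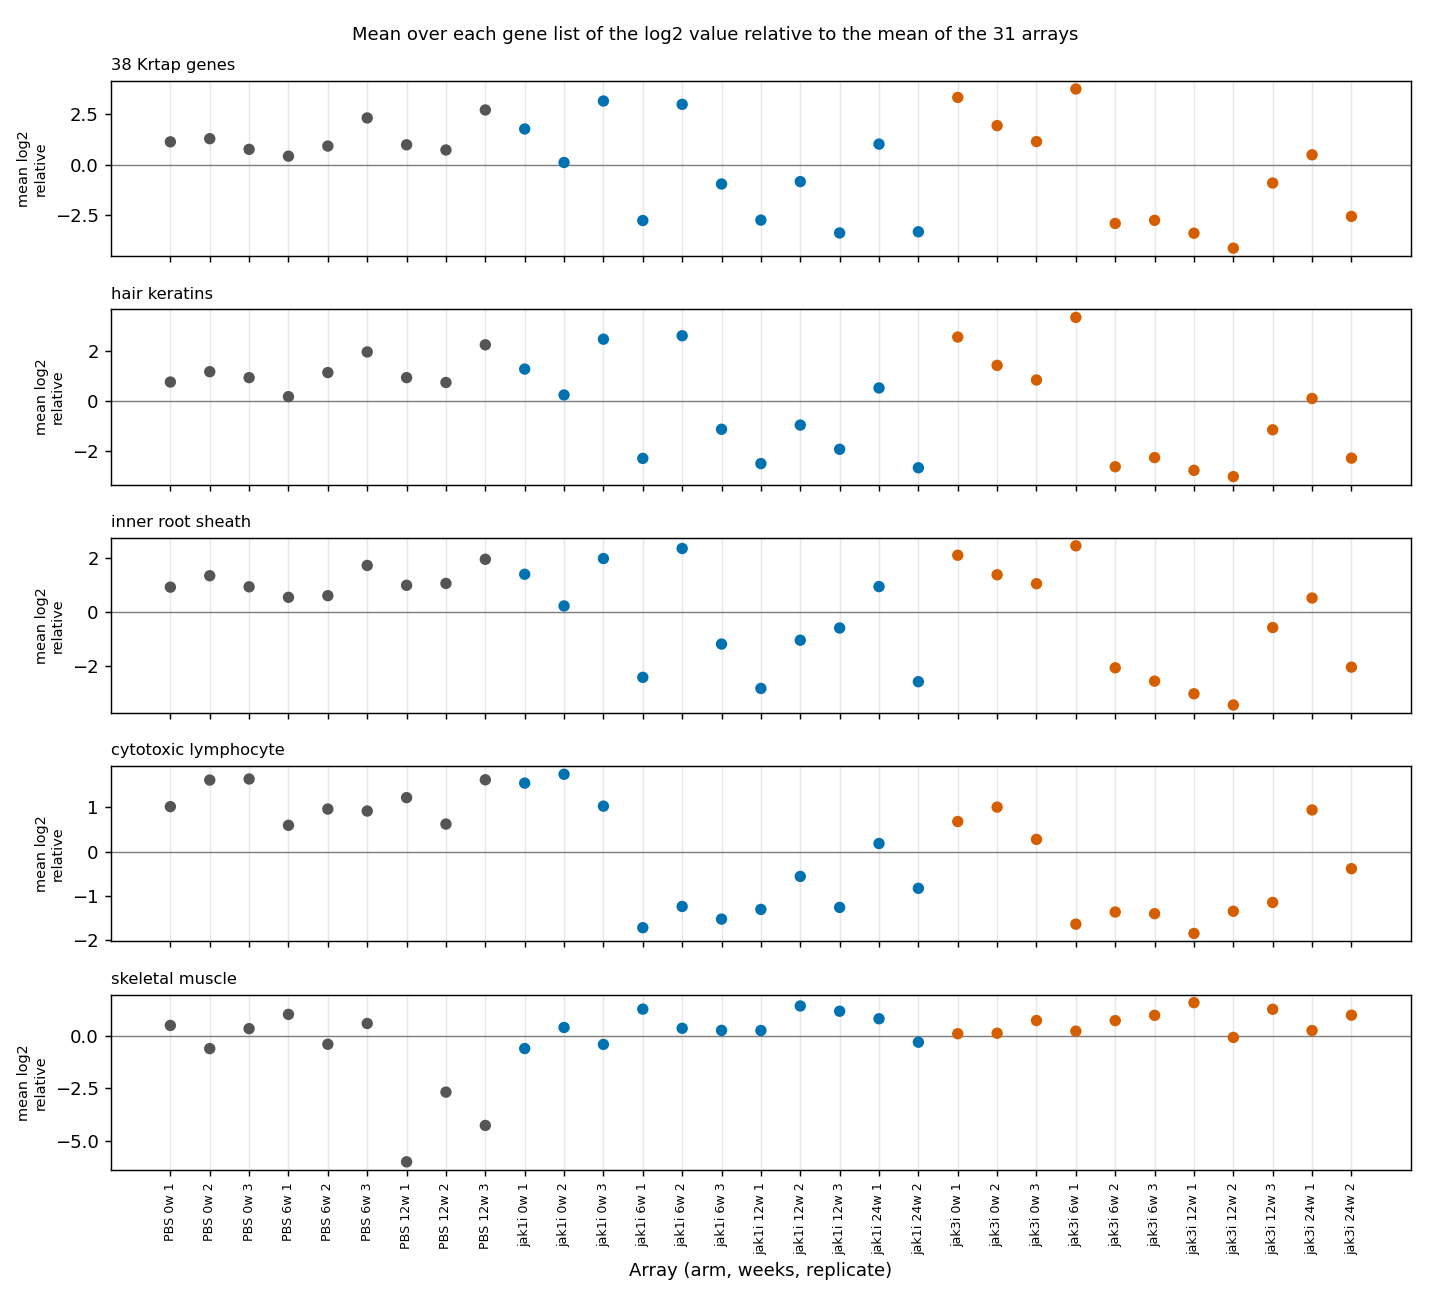
List mean in each array, where each gene's log2 value had its own 31-array mean subtracted, 1 point per array, coloured by arm (grey PBS, blue jak1i, orange jak3i). Hair keratins and inner root sheath genes follow the Krtap mean in most arrays, cytotoxic genes are low in all 6 inhibitor arrays at 6 weeks, including the 2 with high Krtap means, and muscle genes are low only in the 3 PBS arrays at 12 weeks.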

How the data were processed

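Skin RNA (extracted with a Qiagen miRNeasy kit and on-column DNase, per the labels) was labelled with biotin for 31 Affymetrix arrays. The authors deposited log2 values made with RMA, per the submitters' processing notes, and the values, from 2.59 to 14.69, bear out a log2 scale. No scan date was at hand for a test of batches, and the number of arrays limits the precision.

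Of 45101 probe sets 34945 named 1 gene and were no controls. The probe set of highest mean stood for a gene, which left 18193 genes. Of 49 probe sets that named a Krtap gene, 43 named only that gene and 6 named several and were left out of the family. A limma 3.58.1 model (R 4.3.3) with 11 group means, 20 residual and 2.5 prior degrees of freedom gave 21 contrasts, with a call at a Benjamini-Hochberg adjusted p under 0.05 over all genes. It was run on simulated data with independent noise for each gene and the same spread in every group. That run does not test the fit for members that move together or for groups of unequal spread. Counts of members with an unadjusted p under 0.05 are given without the share of all genes at that level. Members, subfamily rule, marker lists and comparisons were chosen with earlier results of these data known. The rule for named members took 4 markers, in each class the 2 largest and the smallest range, calls where there were 5 or fewer, and the 3 largest called changes of a class. The main fit did not pair samples by replicate number. Deviations correlated with a median r of −0.02 over 146 pairs of the same number and 0.00068 over 290 of other numbers. These pairs pool arrays within and between arms, so they cannot tell whether mice recur within an arm. Promoters are RefSeq's, build GRCm38.p6.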

Additional observations from a re-analysis of the deposited data

Results flagged for a closer look

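Krtap31-1 was singled out after its values had been seen, and it was the 1 member of 38 called, beside 1.96% of all genes called lower in the same test. The course of Krtap31-1 from 0 to 12 weeks differed between the jak3i and PBS arms in a test of that difference itself, by −8.29 on the log2 scale (SE 2.24, limma adjusted p = 0.0424). In that test 11 of 12 skeletal muscle markers were higher, and their part was not tested. The value was lower at 12 than at 0 weeks in jak3i (means 4.96 and 9.52) and higher in PBS (9.30 and 5.58), and neither of these 2 changes passed alone. The arms were already apart at 0 weeks, with jak3i at 9.52 and PBS at 5.58. That gap was not called and is part of the −8.29. The arrays of PBS at 0 weeks (5.42 to 5.79) and of jak3i at 12 weeks (4.93 to 4.97) lay below the median of every array. The lowest value of the gene was 4.92. Over 19 other settings the difference ran from −9.43 to −7.37 and its adjusted p from 0.0078 to 0.120, and it was called in 8 of them.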

How the results depend on the processing

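Leaving out single arrays gave 0 to 0 members for jak1i against PBS at 12 weeks, 0 to 20 for jak3i against PBS at 12 weeks, 0 to 5 for jak1i and 0 to 22 for jak3i from 0 to 12 weeks, 0 to 33 for jak3i from 0 to 6 weeks, 0 to 1 for jak3i against PBS at 6 weeks, and 0 to 1 for each test of the course against PBS. With the compared arrays only the counts were 22 and 28 against PBS at 12 weeks, 30 and 33 from 0 to 12 weeks and 20 and 35 for the courses (jak1i and jak3i in turn). With PBS at 6 weeks as the control they were 0 and 0. The replicate block rests on numbers that are not known to pair the samples. It gave 0 for jak1i and 10 for jak3i against PBS at 12 weeks, 5 for jak3i from 0 to 12 weeks and 0 for its course against PBS. The shares of all genes called lower were 6.01%, 6.51%, 1.91% and 1.46% in turn. Leaving out dim genes gave 4 for jak1i against PBS at 12 weeks, 5 for jak1i from 0 to 12 weeks and 1 for its course, of 37 members, beside 11%, 9.74% and 7.2% of all genes called lower. Unsuffixed probe sets gave 1, and the trended and robust variance 0, for jak1i against PBS at 12 weeks. Centred arrays gave 32 for jak3i from 0 to 12 weeks. The cause of these changes was not tested, but fewer arrays and another estimate of the spread are part of the leave-out and compared-arrays fits.

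In both inhibitor arms the medians against PBS at 12 weeks, from 0 to 12 weeks and of the courses against PBS kept their sign, between −6.94 and −3.41. The medians of jak1i at 24 against 12 weeks, PBS over time, jak1i against PBS at 0 weeks and jak3i against jak1i at 12 and 24 weeks changed sign in at least 1 setting. Of 1002 values for single genes 786 kept their side of the threshold, 162 lost and 54 gained it, and 0 changed sign as called values. Protein composition could not be set beside the classes and was not run.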

Other observations

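Probe sets that name several genes, and so were no members, showed 6 more Krtap signals. One named Krtap2-4 with 2 gene models and another Krtap6-1 with 2; from 0 to 12 weeks in jak3i their group means differed by −5.86 and −5.72, and from 0 to 12 weeks in PBS by 0.31 and −0.37. Both probe sets that name Krtap3-2 and Krtap3-3 together differed by −3.10 and −1.46 in the first comparison, one for Krtap4-13 with 2 gene models by −4.17, and one for Krtap9-1 with 3 by −4.12.

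In 1 array the inner root sheath list stood well above the Krtap classes and the hair keratins. In jak1i at 12 weeks replicate 3 the glycine-tyrosine members were at −4.39 relative to their 31-array means, the ultrahigh-sulfur members at −2.94 and the hair keratins at −1.93, but the inner root sheath list was at −0.60, beside −0.58 in jak3i at 12 weeks replicate 3, where the glycine-tyrosine members were at −0.64. In jak1i at 12 weeks replicate 1 the corresponding values were −2.93, −2.86, −2.50 and −2.86. The gap between the 2 classes was also present in jak3i at 12 weeks replicate 2 (glycine-tyrosine −5.20, ultrahigh-sulfur −3.71), where the inner root sheath list was at −3.475. The departure of the inner root sheath list is from 1 array and was not tested.

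In both 24-week groups Krtap31-1 was below its own 31-array mean in the array with the higher family mean. It was at −1.09 relative to that mean where the family was at 1.01 in jak1i, and at −1.96 where the family was at 0.48 in jak3i. The jak3i array, with a value of 5.03, was near the lowest value of the gene, 4.92. The jak1i array, at 5.90, was above the median of the gene, 5.79, but below the median of every array (6.05 to 6.24).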
